A study of Cavia porcellus with 30 samples.

Results

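Livers taken 33 h after the high dose of thioacetamide were set against livers taken 33 h after the low dose. The libraries were chosen by their dose and duration labels, 5 animals at each dose, 10 of the 30 in the series. All animals were Hartley guinea pigs, an outbred laboratory breed, and each library is the liver RNA of 1 animal. The high dose group received 100 mg/kg and the low dose group 25 mg/kg. Animals are numbered within a group only to tell them apart. A further 5 animals that received saline vehicle (3 ml/kg) and were also sampled at 33 h served as the reference for both doses. Groups sampled at 9 h under the same treatments, 5 animals each, were used only where named. The series states that the doses were chosen to give different degrees of liver injury, so the comparison asks how the liver transcriptome at the later time differs with dose, and how far animals given the same dose differed from each other. Age, sex, route and histology were not used here.

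Thioacetamide is harmless until liver enzymes, mainly cytochrome P450 CYP2E1 and flavin monooxygenases, oxidise it to reactive sulfur oxides. These products bind to proteins of the hepatocytes that hold most of those enzymes, around the central vein, and the cells are damaged or die. In rodents the injury is followed by inflammation and by division of surviving cells. The extent of injury depends in part on how much of these products an animal forms, which was not measured here.

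The deposited tables list transcripts by Ensembl identifier with no gene name, and the reference table used here matched 0 of 25824 identifiers. The results are therefore about groups of transcripts, set by direction, abundance and time, and about 4 transcripts picked by a rule, and the tissue could not be checked against marker genes. No sequence is shown for the same reason. Total estimated counts over the 15 libraries of 33 h ran from 21352800 to 31390900. The doses did not differ detectably in depth, with 27211000 ± 3234000 at the high and 27396000 ± 1420000 at the low dose (SD, n = 5 each; p = 0.905 by exact permutation). Mean fragment length, read from the difference between listed and effective transcript length, was 205.4 to 220.5 bases at the high dose and 203.8 to 217.6 at the low dose (two-sided exact permutation test, p = 0.262).

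The dose made a wide difference at 33 h. Of 18239 transcripts tested, 2094 were higher and 2203 lower at the high dose than at the low dose, 4297 in all or 23.6% (edgeR quasi-likelihood test on the 10 animals, Benjamini-Hochberg adjusted p under 0.05). Rises were 11.5% and falls 12.1% of the transcripts tested. Changes of at least 2-fold comprised 826 rises (4.53%) and 593 falls (3.25%). At 4-fold or more there were 222 rises and 70 falls. Across all tested transcripts the log2 difference had a median of 0.03 and quartiles of -0.32 and 0.39. The same test on the 9 h animals called 1206 transcripts between the doses, or 6.61%, with 672 higher (3.68%) and 534 lower (2.93%).

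The count depended on single animals. It was 2789, 2758 or 2785 without low dose animal 1, 2 or 3 and 2814 without high dose animal 3, against 4832 without low dose animal 4 and 5184 without high dose animal 5. Rises of at least 2-fold were 517 without high dose animal 3. Direction depended on scaling: values here use TMM factors, which averaged 1.32 ± 0.0842 at the high and 1.09 ± 0.0895 at the low dose (SD, n = 5 each). With library totals in their place the median of all transcripts moved from 0.03 to 0.31, and rises made up 81.8% of 5950 calls, where TMM gave 48.7%. Changes of at least 2-fold were then 1542 rises and 282 falls.

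**Figure D1:**
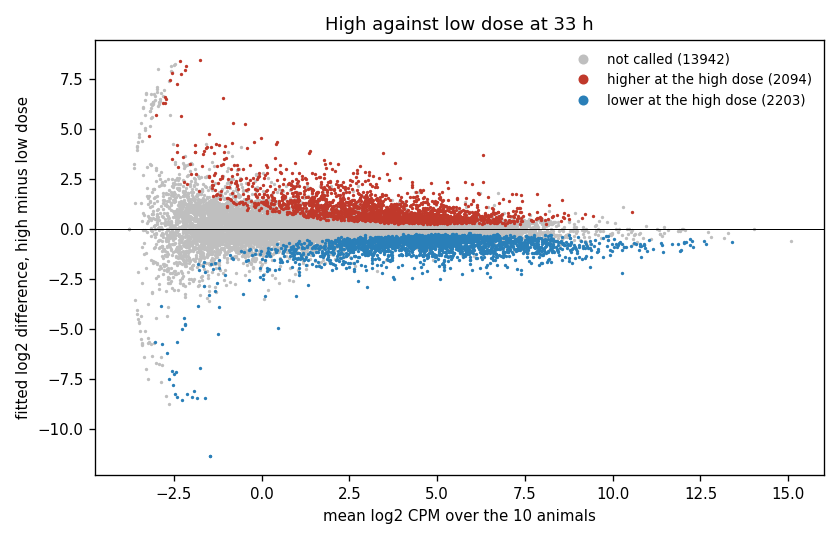
Each point is 1 of 18239 transcripts, with its mean log2 CPM over the 10 animals on the horizontal axis and its fitted log2 difference, high minus low dose, on the vertical axis. The 2094 rises (red) extend to large differences at the left and middle, while calls among the most abundant transcripts at the right are nearly all falls (blue).

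Rises and falls lay at different abundances. Classes were set on the mean TPM (a length-corrected share of all transcripts) of the vehicle animals of 9 h, which take no part in the comparison. Of 5018 transcripts under 1 TPM in those livers, 509 rose (10.1%) and 85 fell (1.69%), and 412 of the 826 rises of at least 2-fold came from this class. A transcript near 0 in undamaged liver can rise but can hardly fall, which limits what that balance shows. From 1 to 10 TPM, 1082 of 7630 transcripts rose and 652 fell. From 10 to 100 TPM the balance was the other way with TMM scaling, with 470 of 4668 higher and 1046 lower, and it turned round with library totals (1405 higher, 479 lower).

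Among transcripts abundant in vehicle livers, called falls outnumbered called rises, though the largest share passed in neither direction. From 100 to 1000 TPM, 364 of 800 fell (45.5%) and 32 rose, with a median log2 difference of -0.37. Above 1000 TPM, 56 of 123 fell (45.5%) and 1 rose, with a median of -0.58. With library totals falls still outnumbered rises in both classes, at 267 against 154 and 46 against 9, but the medians were -0.09 and -0.31. In bulk liver RNA, fewer cells of a type and less RNA per cell cannot be told apart, and a fall here is a fall in the share of the RNA sequenced. Transcript length differed little between the sets, the median being 2537 bases for all tested.

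More transcripts reached the detection limit of 10 counts after the high dose. At least 10 counts were reached by 17292 ± 147 transcripts at the high dose and 16759 ± 268 at the low dose (SD, n = 5 each), against 16157 ± 231 in the vehicle livers. The lowest high dose animal, at 17098, was above the highest low dose animal, at 17037 (exact permutation, two-sided p = 0.00794, the lowest possible with 5 against 5; adjusted over 4 such tests, 0.0159). The difference of 533 transcripts was 603 after every library had been thinned to the smallest 33 h total. Thinning makes the totals equal but not the way counts are shared among transcripts. Mean TMM factors followed the same order, at 0.869 in vehicle, 1.09 in low dose and 1.32 in high dose livers. Whether the sharing of counts accounts for the difference was not tested. Complete switches were rare. With 0 counts in all 5 low dose livers, 1 transcript reached at least 10 counts in each high dose liver, and 2 transcripts showed the opposite pattern.

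In most called transcripts the low dose mean was intermediate. Among the 2094 rises, the low dose mean lay between vehicle and high dose for 1398 (66.8%), and in 679 the vehicle mean lay between the doses. Among the 2203 falls the low dose mean was intermediate for 1667 (75.7%), with the vehicle mean between the doses in 482. Vehicle lay beyond the high dose mean in 17 rises and 54 falls. These counts rest on the same animals as the calls and are a description.

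Separation of the doses without overlap was counted over all 5 animals of each. The 5 high dose values did not overlap the 5 low dose values in 1022 of the called rises and 1432 of the called falls, while over all tested transcripts 6.48% were separated upward and 8.47% downward. All 3 groups stood in dose order without any overlap in 462 of the called falls (21%) and 110 of the called rises (5.25%). Over all tested transcripts those shares were 2.59% and 0.68%. Calls and overlap were taken from the same animals, so separation is more frequent among calls by selection. The counts are a description.

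Against vehicle, with which each dose shares the reference animals, the low dose gave 1991 rises (10.9% of tested transcripts) and 1710 falls (9.38%), 20.3% in all. The high dose gave 4570 rises (25.1%) and 3615 falls (19.8%), 44.9% in all. At each of the 3 steps (low against vehicle, high against low, high against vehicle) 373 transcripts were called higher and 810 lower. A larger set, 1417 higher and 1094 lower, was called for the high dose against both other groups but not for the low dose against vehicle. In 72 transcripts the low dose was called above vehicle and the high dose below the low dose, with no call between high dose and vehicle. In 44 the reverse held.

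Animals of 1 dose did not respond equally, and the low dose animals spread along the same line that leads from vehicle to the high dose. To place each liver, its log2 CPM over all 18239 transcripts was projected on the line from the vehicle mean (0%) to the high dose mean (100%), with vehicle and high dose animals each left out of the means when they were placed. The vehicle livers, placed in this way, stood at 6.65% to 14.7%, which shows how far above 0 the measure lies without any treatment. Low dose animals 1 to 5 stood at 40.2%, 45.9%, 23.8%, 71.9% and 51.7%. High dose animals 1 to 5 stood at 88.1%, 93.2%, 107%, 96.3% and 72.5%. Low dose animal 3 was thus nearest to vehicle. Low dose animal 4 lay within 1 percentage point of high dose animal 5, but these values come from different lines. On the line made without high dose animal 5, which placed that animal at 72.5%, low dose animal 4 stood at 66.4%. The group means were 46.7% ± 17.5 at the low and 91.5% ± 12.8 at the high dose (SD, n = 5 each).

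The line was made with the high dose animals, so the gap between the group means is a description. Low dose animal 4 and high dose animal 5 changed order when high dose animal 1 was left out of the line (69.6% against 69.2%), and also without high dose animal 2, 3 or 4. In each case high dose animal 5 was placed on a line made without it, and low dose animal 4 on a line made with it. These values therefore do not rank the pair. Low dose animal 3 stayed the lowest of its group, and animal 4 the highest, with a prior count of 0.5, with only transcripts of at least 10 CPM, with DESeq2 size factors and with library totals. The TMM factors moved with the position: they were 0.978 in low dose animal 3, 1.07, 1.10 and 1.08 in animals 1, 2 and 5, and 1.23 in animal 4. With library totals, where these factors play no part, the low dose animals ran from 23.3% to 73.9%. Low dose animals 3 and 4, at the ends of the range, had similar depth, with totals of 26237700 and 26863100 counts.

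**Figure D2:**
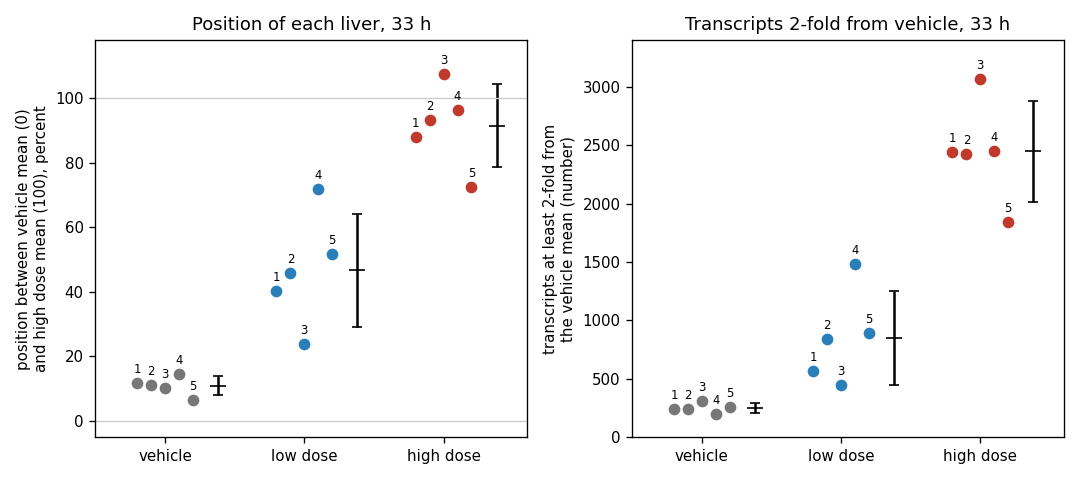
Each point is 1 liver at 33 h, numbered by animal, with the group mean and SD beside it (n = 5). On the left is its position between the vehicle mean and the high dose mean in percent, and on the right the number of transcripts at least 2-fold from the vehicle mean. In both panels low dose animal 3 is the lowest of its dose and animal 4 the highest, and high dose animal 5 is the lowest of its dose.

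The order of the low dose animals was the same at every abundance. In each of the 5 classes of vehicle abundance animal 3 was lowest, followed by animals 1, 2, 5 and 4. The range ran from 21.9% to 71.3% among transcripts under 1 TPM and from 24.1% to 70.5% among those over 1000 TPM. Among the high dose animals, animal 5 was lowest and animal 3 highest in all 5 classes. Low dose animal 4 stood above high dose animal 5 among transcripts of 1 to 10 TPM (74.3% against 72.2%) and below it in the other 4 classes. Here too the values come from different lines, since high dose animal 5 was left out only when it was itself placed. The classes share the same libraries, so this order is not independent evidence from class to class.

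Counting large changes gave the same picture. Of 11031 transcripts with a mean of at least 5 CPM over the 15 animals, low dose livers 1 to 5 had 569, 844, 445, 1485 and 893 that lay at least 2-fold from the vehicle mean. High dose livers 1 to 5 had 2444, 2425, 3071, 2450 and 1845. Vehicle livers, each set against the other 4, had 194 to 313. The low dose animals thus differed by more than 3-fold in the number of displaced transcripts, while the least affected high dose liver had more than the most affected low dose liver. Low dose animal 4 had 757 transcripts above and 728 below vehicle, and low dose animal 3 had 257 above and 188 below.

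Over all transcripts, the root mean square distance of a liver from the vehicle mean was 0.834 to 1.05 log2 units at the low dose and 1.08 to 1.38 at the high dose. The ranges did not overlap, and the means were 0.925 ± 0.0798 and 1.22 ± 0.110 (SD, n = 5 each; exact permutation, two-sided p = 0.00794, adjusted 0.0159). Vehicle livers lay at 0.769 to 0.846 from the mean of the other 4, a range that holds low dose animal 3 at 0.834. A mean of 4 animals adds more noise to a distance than a mean of 5, and by position and by 2-fold changes the same animal lay outside the vehicle range.

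Low and high dose livers did not differ detectably in scatter when all tested transcripts were counted together. The distance of a liver from the mean of the other 4 of its own dose was 0.748 ± 0.0587 log2 units at the low and 0.729 ± 0.0611 at the high dose (SD, n = 5 each; exact permutation, two-sided p = 0.595, adjusted 0.793). Vehicle livers lay at 0.804 ± 0.0296 by the same measure (SD, n = 5), with a mean above that of both doses. The measure thus holds variation present without treatment and does not show the spread of response alone. The sign of the difference between the doses depended on the setting. Among transcripts of at least 10 CPM the high dose was the more scattered, by 0.0267 (exact permutation test, p = 0.524). In the 8571 transcripts of at least 10 CPM, the median SD between animals was 0.171 log2 units in vehicle, 0.191 in low dose and 0.215 in high dose livers. At 9 h it was 0.157, 0.152 and 0.164. At 33 h the SD was larger at the high than at the low dose in 59.3% of these transcripts, and at 9 h in 54.1%. At 33 h it was more than 2 times larger at the high dose in 1246 of them, and the reverse held in 726. At 9 h the corresponding counts were 1165 and 845.

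What scatter there was in the low dose group lay partly along the response itself. Across 18239 transcripts, the deviation of a low dose animal from its group mean correlated with the difference between high dose and vehicle, which was made from other animals, with Pearson r = 0.43 for animal 4 and -0.36 for animal 3. For animals 1, 2 and 5 it was -0.13, -0.02 and 0.10. These are correlations across transcripts of single livers, and transcripts are not independent replicates. The deviations of a group sum to 0, so 1 positive value requires negative ones elsewhere. Within the low dose group, 33.0% of the variance lay on the first axis, against 30.3% among vehicle and 33.9% among high dose livers. At 9 h it was 29.6% in vehicle, 28.7% in low dose and 26.8% in high dose livers. With 5 animals a group few axes exist, so the first holds a sizeable share in any group. Whether it runs along the response was not tested.

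The transcripts raised by the high dose show the spread in units of expression. Over the 1992 transcripts (10.9% of those tested) called at least 2-fold above vehicle at the high dose, a list that no low dose animal helped to choose, the median log2 excess over vehicle in low dose animals 1 to 5 was 0.55, 0.64, 0.26, 1.17 and 0.78. In the high dose animals that chose the list it was 1.52, 1.60, 1.84, 1.66 and 1.27. Over the 1593 transcripts (8.73%) called at least 2-fold below vehicle, low dose animals 1 to 5 stood at -0.54, -0.67, -0.40, -1.03 and -0.77, and the high dose animals at -1.48, -1.51, -1.83, -1.55 and -1.25. Animals kept their rank in both directions: low dose animal 3 had moved least and animal 4 most, whether transcripts rose or fell.

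Single transcripts mostly followed that order. Low dose animal 4 had the highest value of its group in 1274 of the 1992 raised transcripts (64.0%) and the lowest in 1068 of the 1593 lowered ones (67.0%). Low dose animal 3 stood at the vehicle end in 1125 (56.5%) and 872 (54.7%). Each of the other 3 low dose animals was the farthest from vehicle in 6.78% to 13.7% of either list.

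**Figure D3:**
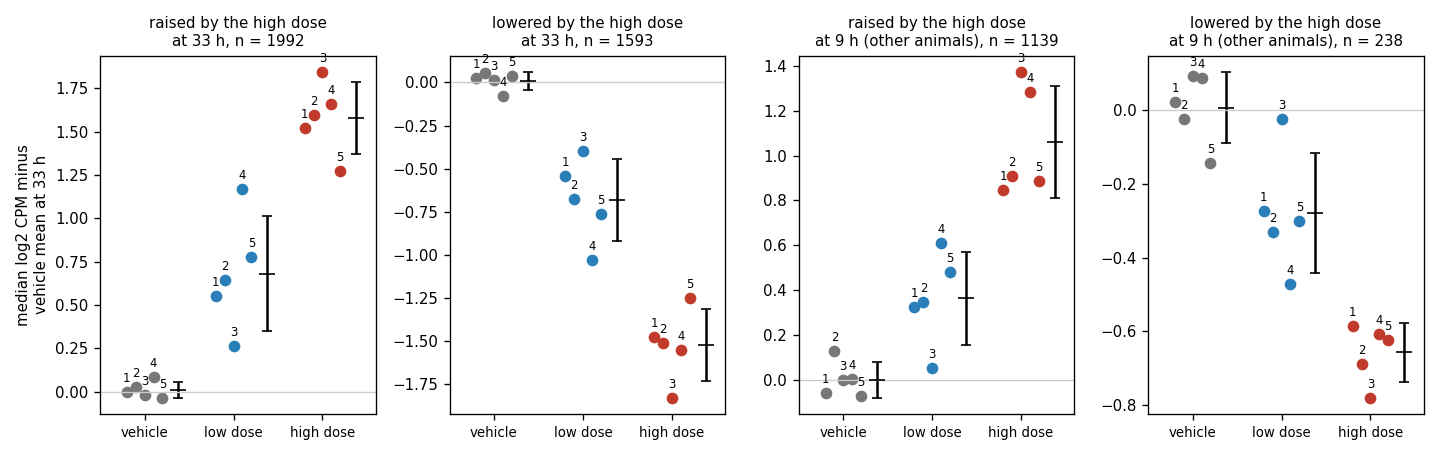
Each point is 1 liver at 33 h, numbered by animal, with group mean and SD (n = 5), and the vertical axis is the median log2 CPM of a list of transcripts minus the vehicle mean at 33 h. The lists on the left were chosen at 33 h from high dose and vehicle animals, and those on the right at 9 h from other animals. In all 4 panels no low dose liver reaches a high dose liver, and among low dose livers animal 3 is nearest to the vehicle mean and animal 4 farthest from it.

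Transcripts that the high dose had already changed at 9 h, in other animals, differed between the doses at 33 h. Of 1139 transcripts (6.24% of those tested) called at least 2-fold above vehicle at 9 h, 359 (31.5%) were higher and 8 lower at the high than at the low dose at 33 h, where 11.5% of all tested transcripts were higher. Their median log2 difference was 0.67, against 0.03 over all tested. The list was not divided by abundance. Transcripts near 0 in vehicle livers can hardly fall, which limits what the balance of 359 against 8 shows. Under 1 TPM in vehicle livers, 10.1% of all transcripts were higher and 1.69% lower. Of 238 (1.3%) called at least 2-fold below vehicle at 9 h, 72 (30.3%) were lower and 4 higher at 33 h, with a background of 12.1% lower and a median of -0.38. With library totals the medians were 0.94 and -0.10, against 0.31 over all tested transcripts.

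In low dose animals 1 to 5 the 9 h rises stood at a median of 0.32, 0.35, 0.05, 0.61 and 0.48 log2 units above vehicle at 33 h. High dose animals 1 to 5 stood at 0.85, 0.91, 1.37, 1.28 and 0.88. In low dose animal 3 the early rises were thus at 0.05, inside the vehicle range of -0.07 to 0.13. The 9 h falls stood at -0.27, -0.33, -0.02, -0.47 and -0.30 in low dose animals 1 to 5 and at -0.58, -0.69, -0.78, -0.61 and -0.62 in high dose animals. The doses did not overlap in either list.

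The transcripts on which the doses had differed at 9 h were divided at 33 h. Of 672 higher at the high than the low dose at 9 h, 166 (24.7%) were higher and 215 (32.0%) were lower at the high dose at 33 h. Abundance divided them: of 101 transcripts at 100 to 1000 TPM in vehicle livers 80 were lower and 0 higher at 33 h, with a median log2 difference of -0.90, while of 108 under 1 TPM 41 were higher and 1 lower, with a median of 0.96. In the whole 100 to 1000 TPM class 45.5% were lower. Over all transcripts under 1 TPM, 10.1% were higher and 1.69% lower. Falls are hardly possible at that level, so the balance under 1 TPM is partly set by the class. The split by abundance was made with TMM scaling only and was not tested with library totals. Of 534 transcripts lower at the high dose at 9 h, 72 (13.5%) were higher and 43 (8.05%) lower at 33 h, shares near the 11.5% and 12.1% of all tested transcripts. The balance of both lists depended on scaling: with library totals 227 of the 672 were higher and 159 lower, and 233 of the 534 were higher and 14 lower.

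The difference between the doses changed between 9 h and 33 h in 4302 transcripts, or 23.6% of those tested (edgeR interaction over the 20 treated animals, adjusted p under 0.05). Of these, 2521 were called between the doses at 33 h and not at 9 h, 1090 as rises and 1431 as falls. Over all tested transcripts, 3801 were called at 33 h and not at 9 h. All 287 transcripts called at both times with opposite signs were among the 4302, which such calls make likely. Of the 287, 215 were higher at 9 h and lower at 33 h, and 72 the reverse. A further 417 were called at 9 h only, 6 at both times with the same sign, and 1071 at neither time. With library totals 7066 were called.

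By the rule for named items, 270 rises and 373 falls of the 18239 transcripts tested were at least 2-fold, reached 5 CPM in the higher group and had no overlap between the doses. Without regard to calls, 6.48% of all tested transcripts were separated upward and 8.47% downward. The rule selects for separation in the same animals, so the values below are a description. The median log2 differences of these rises and falls were 1.40 and -1.28. The rises were of modest abundance, with a median of 2.64 TPM at the low and 9.94 TPM at the high dose, and the falls started from more, 45.2 TPM at the low and 21.4 TPM at the high dose. Among the low dose livers, animal 4 was the closest to the high dose in 194 of the 270 rises and 291 of the 373 falls. Among the high dose livers, animal 5 was the closest to the low dose in 211 rises and 274 falls, and animal 3 the farthest in 164 and 263. The largest and the most abundant of each direction are described below.

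**Figure D4:**
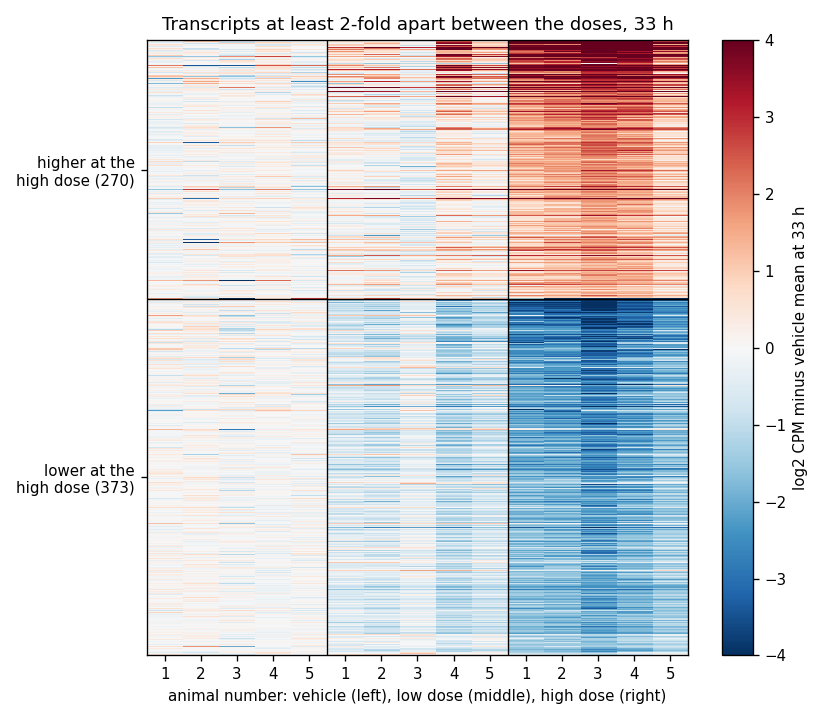
Rows are the 270 rises and 373 falls that meet the rule, ordered by size, and columns are the 15 livers of 33 h. Colour is log2 CPM minus the vehicle mean, with values beyond 4 units shown at the ends of the scale. The low dose columns are pale, most so in animal 3 and least so in animal 4, and the high dose columns are strongest in animal 3 and weakest in animal 5; the rows were selected for their difference between the doses.

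The largest rise among those that met the rule was that of ENSCPOT00000034043.1, a transcript of 1384 bases. It was listed at 0 in all 5 vehicle livers of 33 h. Low dose animals 1 to 5 measured 0.187, 0, 0.0389, 2.13 and 0.305 TPM, which makes animal 4 the only one of this dose above 1 TPM. High dose animals 1 to 5 measured 7.36, 10.8, 17.2, 22.0 and 3.04 TPM, all above low dose animal 4. The means were 12.1 ± 7.60 and 0.532 ± 0.900 TPM (SD, n = 5 each), from 1528 and 67 counts in all. The fitted log2 difference was 4.34 ± 0.93 (SE, edgeR adjusted p = 0.0104), and without low dose animal 4 it was 6.16. At 9 h the transcript stood at 1.15 ± 0.649 TPM at the high and 0.545 ± 0.208 TPM at the low dose (SD, n = 5 each), a difference that was not called (edgeR adjusted p = 0.131).

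The most abundant rise among those that met the rule was that of ENSCPOT00000024501.2, a short transcript of 348 bases. The low dose left it near the vehicle level: vehicle livers measured 129 to 167 TPM, and low dose animals 1 to 5 measured 186, 151, 93.8, 203 and 165 TPM. High dose animals 1 to 5 measured 410, 510, 762, 493 and 245 TPM. The lowest of these, animal 5, was still above every low dose and vehicle liver. The log2 difference between doses was 1.39 ± 0.26 (SE, edgeR adjusted p = 0.0072). Low dose against vehicle was not called (log2 difference -0.30 on TMM-scaled counts, edgeR adjusted p = 0.154). In TPM the low dose mean was the higher, at 160 against 146 in vehicle livers. At 9 h the means were 152 ± 26.0 TPM at the high and 167 ± 53.8 TPM at the low dose (SD, n = 5 each), and the change of the dose difference between times passed the test (edgeR adjusted p = 0.0107).

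The largest fall among those that met the rule was that of ENSCPOT00000046429.1, a transcript of 1245 bases. Low dose animals 1 to 5 measured 11.6, 31.0, 10.5, 10.4 and 11.2 TPM, and high dose animals 1 to 5 measured 2.26, 0.0149, 0.0159, 0.310 and 0.0318 TPM. The doses did not overlap, and the log2 difference was -4.92 ± 1.0 (SE, edgeR adjusted p = 0.00859). It was -7.54 without high dose animal 1 and -6.95 with limma voom. The vehicle livers themselves ran from 0.00943 to 27.7 TPM and so spanned both doses. Estimated counts are divided between transcripts that share sequence, which limits what a single transcript of such variable level shows.

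The most abundant fall among those that met the rule was that of ENSCPOT00000012970.3. This transcript of 396 bases ranks among the most abundant in the liver. Vehicle livers held 31113 to 40119 TPM. Low dose animals 1 to 5 held 24925, 16478, 25278, 14254 and 20536 TPM, and high dose animals 1 to 5 held 11530, 6843, 5432, 9860 and 13414 TPM. All 3 groups stood apart, and low dose animal 4 and high dose animal 5 were the closest pair across the doses. The mean fell from 20294 ± 4934 TPM at the low to 9416 ± 3284 TPM at the high dose (SD, n = 5 each). The fitted log2 difference, made on TMM-scaled counts and not on TPM, was -1.37 ± 0.31 (SE, edgeR adjusted p = 0.0119). With library totals it was -1.09. At 9 h the doses had held 31310 ± 3171 and 33075 ± 3035 TPM (low and high, SD, n = 5 each), with no call between them (edgeR adjusted p = 0.209).

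**Figure D5:**
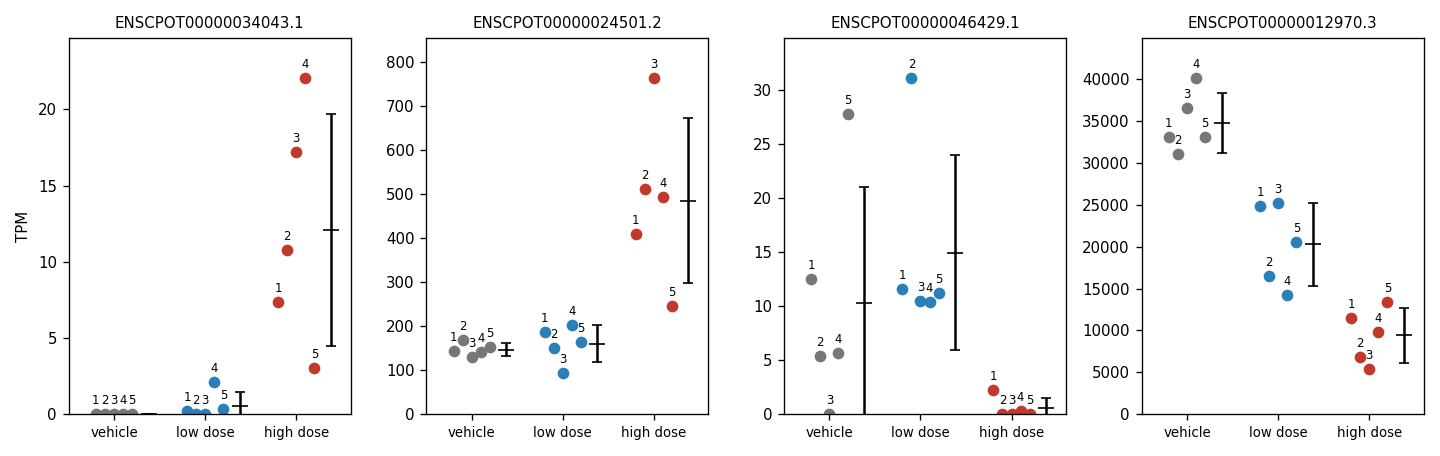
TPM of the 4 named transcripts in each liver of 33 h, numbered by animal, with group mean and SD (n = 5), on linear axes that start at 0. ENSCPOT00000034043.1 and ENSCPOT00000024501.2 are higher in all 5 high dose livers than in any low dose liver, and ENSCPOT00000046429.1 and ENSCPOT00000012970.3 are lower in all 5.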

How the data were processed

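Per the labels' protocols, the libraries hold poly-A RNA with strand marked, read from both ends. The authors quantified them with kallisto 0.42.4, per the submitters' processing notes; which transcript set was used is not given in the sources used here. The deposited estimated counts are per transcript and not normalized, and the deposited TPM values are scaled by effective length to a fixed total, per the file headers. Reads shared between transcripts are divided by the estimate.

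Counts were rounded and tested per transcript, since no identifier matched a gene. Transcripts were kept by edgeR's filterByExpr over all 30 libraries (18239 kept, 99.95% to 99.98% of counts), scaled by TMM, and fitted by robust quasi-likelihood in edgeR 4.0.16 (R 4.3.3) on the 10 animals of each comparison alone, so that other groups do not set the spread. Calls were made at adjusted p under 0.05. SE is the log2 difference over the root of F. log2 CPM used a prior count of 2. Single values were compared by exact permutation over all arrangements of 5 against 5.

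No batch is given in the labels; the labels give no replicate numbers, so numbers were assigned here only to name animals, taken as separate because the series describes 30 animals. Every pair within a 33 h group differed by more than counting noise (chi-square per degree of freedom of 36.4 to 190 over 30 pairs). On simulated data with 200 of 18239 transcripts changed, the test recovered 7.46%, 55.2% and 84.8% of 1.5-, 2- and 4-fold changes, with 8 of 106 calls false. Changes were simulated only in transcripts above a minimum expected count, so recovery among rarer ones was not covered. In the data 23.6% of transcripts were called, a far larger share than was changed in the simulation, so these recoveries need not carry over. The comparison, lists and rules were chosen with earlier results of these data known. Named transcripts were the largest and the most abundant rise and fall among those called, at least 2-fold, at 5 CPM or more and without overlap. The interaction between times, and the other scalings for comparisons beyond high against low dose at 33 h, were added after seeing the data. Alternatives were other scalings, filters, fits, DESeq2 1.42.0, limma voom 3.58.1 and leaving out each animal.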

Additional observations from a re-analysis of the deposited data

Results flagged for a closer look

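Of 72 groups of 5 values examined, 5 held a value far from the other 4, where chance gives about 5% of groups. ENSCPOT00000034043.1 was at 2.13 TPM in low dose animal 4 at 33 h and at 0 to 0.305 TPM in the others of that group. ENSCPOT00000046429.1 had such a value in 3 groups: 31.0 TPM in low dose animal 2 at 33 h (others 10.4 to 11.6), 2.26 TPM in high dose animal 1 at 33 h (others 0.0149 to 0.310) and 52.5 TPM in high dose animal 5 at 9 h (others 5.96 to 16.5). ENSCPOT00000012970.3 was at 36822 TPM in low dose animal 3 at 9 h (others 29064 to 31075). None of the positions, distances or list levels of the 33 h animals stood apart by this measure, low dose animals 3 and 4 included.

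The difference between the doses itself differed between 9 h and 33 h in 4302 transcripts (edgeR interaction test), 2090 more positive and 2212 more negative at 33 h.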

How the results depend on the processing

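The 4 named transcripts kept their direction and an adjusted p under 0.05 in each of the alternatives run. The number of calls between the doses was 3748 to 6050 over the other scalings, filters, fits and tools, the highest with all 30 animals fitted together, and 2758 to 5184 when 1 animal was left out. The percentage of calls that were rises was 81.8% with library totals, 45.3% with DESeq2 size factors, 46.5% without a count filter and 51.0% with all 30 animals, and 42.5% to 51.3% when 1 animal was left out. No transcript called in both changed sign with library totals. With library totals the low dose against vehicle gave 6469 calls (3701 with TMM), the doses at 9 h 2180 (1206 with TMM) and the change of the dose difference between times 7066 (4302 with TMM, 85.9% against 48.6% of them more positive). The median at 33 h of transcripts higher at the high dose at 9 h went from -0.06 to 0.23 with library totals, and that of transcripts lower at 9 h from 0.09 to 0.37.

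The difference between doses in distance from vehicle was 0.281 to 0.412 over the settings and 0.254 to 0.330 when 1 animal was left out, with exact p of 0.00794 to 0.0159. The difference in scatter within a dose, -0.0198, became 0.0267 with transcripts of at least 10 CPM and 0.00385 with library totals, and ran from -0.0651 to 0.0263 when 1 animal was left out; none passed the test. The mean low dose position was 40.4% to 52.4% when 1 animal was left out. The difference in detected transcripts ran from 435.5 to 603 and that in total counts from -979070 to 969030 when 1 animal was left out. No paired analysis was run, since each library is a different animal and the labels give no pairing between animals. Depth and 5 animals a dose limit what can be called, above all changes under 2-fold.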
